A study of Mus musculus with 12 samples.

Results

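The comparison asked which transcripts differ between Nras-mutant and wild-type haematopoietic stem cells (HSCs), from which every blood lineage is renewed, in the same direction whichever of 2 sorted populations the cells came from. It used all 12 of the 12 arrays of the series, 6 of Nras and 6 of wild-type cells. For every gene the Nras minus wild-type difference in log2 signal was taken within GFPhigh cells and within GFP- cells, and the mean of both differences is the averaged log2 fold change. Genes are described where both populations gave the same sign.

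Each of the 4 groups held 3 biological replicates. GFP- and GFPhigh cells were purified by flow cytometry from the bone marrow of wild-type mice and of Nras mice. The labels call GFP- cells cycling and GFPhigh cells quiescent, and the Nras mice were NrasG12D/+. All groups shared doxycycline in the drinking water for 6 weeks and 12 further weeks without it before collection. The promoter of the GFP transgene, the way the mutant allele was switched on, the age of the mice, and whether samples were single or pooled mice are not stated in the labels. Nor is it stated whether GFP- and GFPhigh samples of the same genotype and number came from the same mice, in which case each genotype would have 3 independent sources and not 6. The p-values therefore measure the spread between these samples.

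Nras is a small GTPase that cycles between a GTP-bound active and a GDP-bound inactive form, and the G12D substitution slows the return to the inactive form. Active RAS recruits RAF kinases and feeds the MEK and ERK kinases as well as PI3K and RAL. ERK output is usually read from immediate early genes such as Egr1 and Fos, from Ccnd1, and from feedback inhibitors such as the DUSP phosphatases and Sprouty proteins. In HSCs, RAS also lies downstream of cytokine receptors such as Kit, next to the JAK and STAT5 branch whose output includes Socs2, Cish and Pim2.

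Median signals of the arrays ran from 44 to 129.6 units. The lowest were 44 and 51.9 in Nras GFP- replicates 1 and 2 and 53.5 in Nras GFPhigh replicate 1. Wild-type GFPhigh replicate 2 followed at 56.8, and the highest was Nras GFPhigh replicate 2. Of 33 HSC identity genes measured and tested, 28 were above the array median on all 12 arrays. An array weight, which falls as an array departs from its group, was 0.308 to 0.522 in 4 arrays and 0.903 to 2.46 in the other 8. The 4, called the uneven arrays, were wild-type GFPhigh replicate 2, Nras GFP- replicate 1 and Nras GFPhigh replicates 1 and 2, so 3 of 4 were Nras. Leaving them out kept 3 GFP- and 2 GFPhigh arrays of wild-type cells, and 2 GFP- and 1 GFPhigh array of Nras cells. The GFPhigh difference then rests on the single array of Nras GFPhigh replicate 3, which is assumed to vary like the other groups, so every value given below for this setting is a description and checks no agreement between populations. Replicate 3 of every group read 91.8 to 205 for Xist and 3877 to 4545 for the Y-linked Eif2s3y, against 5773 to 11481 and 2.3 to 675 in replicates 1 and 2. Genotype was balanced over this split. The median of all tested genes was -0.15 in the averaged log2 fold change, and centring each array on its median moved it to 0.13.

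Gem rose in Nras cells of both populations and was the single gene of 12083 tested to pass limma's test at an adjusted p under 0.05, which is 0.00828% of tested genes higher and 0% lower. Gem encodes a small GTP-binding protein of the RGK group, which binds calcium channel subunits and is an early gene in activated lymphocytes. Its signals were 504, 626 and 199 in wild-type GFP- samples and 5560.1, 3974 and 3613 in Nras GFP- samples. In GFPhigh cells they were 732, 558 and 1012 in wild-type samples and 5387, 2460 and 4996 in Nras samples. All 6 Nras samples were therefore above all 6 wild-type samples. The averaged log2 fold change was 2.94 ± 0.38 (SE, 6 against 6), with an adjusted p of 0.0359 by limma. It was 3.44 in GFP- cells and 2.44 in GFPhigh cells, and the interaction p of 0.21 (unadjusted, limma) gave no test past the threshold for a difference between the populations.

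Over the alternatives that could measure it, the averaged log2 fold change stayed between 2.69 and 3.23. The adjusted p of limma ran from 0.0103 to 0.465, and was 0.131 with median centring, 0.202 without the uneven arrays, 0.0902 with a term for replicate 3, 0.0573 when GFP- and GFPhigh samples of 1 genotype and number were fitted as a random block, 0.465 with replicates 1 and 2 alone, and 0.153 without an intensity trend. Leaving out 1 array gave 0.0221 to 0.160. The call held without Nras GFP- replicate 3, Nras GFPhigh replicate 2 or wild-type GFP- replicate 2, and ended without any 1 of the other 9 arrays, which were Nras GFP- replicates 1 and 2, Nras GFPhigh replicates 1 and 3, wild-type GFP- replicates 1 and 3, and wild-type GFPhigh replicates 1, 2 and 3. The random block was added after the data were seen. Gem was measured by 1 probe set, which was assigned to this 1 gene symbol. The probe set is of a type that matches several transcripts and is counted below among the shared ones.

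**Figure D1:**
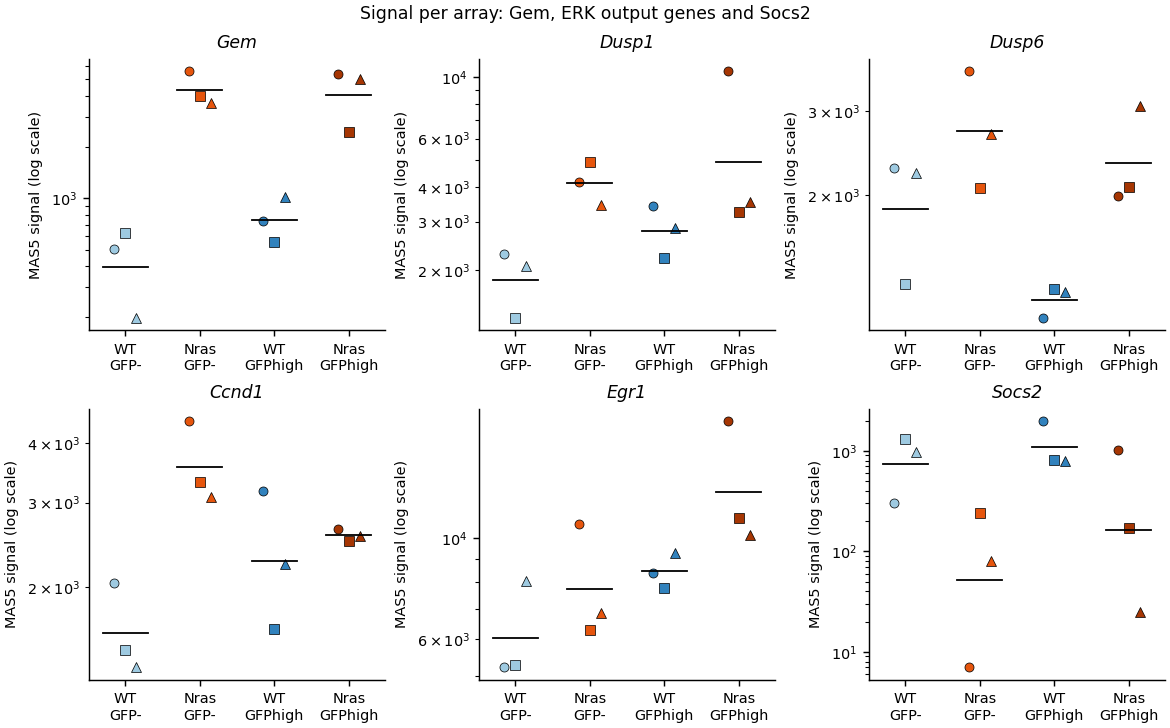
Signals of Gem, of the ERK output genes Dusp1, Dusp6, Ccnd1 and Egr1, and of Socs2 on each of the 12 arrays, in MAS5 signal units on log axes; circles, squares and triangles are replicates 1, 2 and 3, and the bar is the geometric mean of 3. The 6 Nras samples of Gem lie between 2460 and 5560 and the 6 wild-type samples between 199 and 1012.

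Over all 12083 genes, 6564 (54.3%) had the same sign in both populations, 2481 higher (20.5%) and 4083 lower (33.8%) in Nras cells. The signs were opposite for 3092 genes that were higher in GFPhigh and lower in GFP- cells and for 2427 with the reverse pattern. Across genes, the log2 fold changes of the populations had a Pearson r of 0.093 and a Spearman coefficient of 0.090, a description over genes that share arrays and are not independent. At an unadjusted p under 0.05 for the average, 311 genes (2.57%) were higher and 578 (4.78%) lower in both populations. On the 8 other arrays these counts were 242 and 572, and 6168 genes had the same sign. All 24 genes named by rank kept the same sign in both populations there. That was fixed in advance, since none of the 24 overlapped between genotypes in either population. They are among the 77 named genes counted next. Of 77 named genes with a shared sign, 13 lost it: Ccnd1, Ralb, Rassf1, Pim2, Cish, Pdk1, Kif20a, Mki67, Npm1, Perp, Hdc, Mcpt8 and Elane. The share of higher genes among those at an unadjusted p under 0.05 was 34.1%, and it was 48.2% after median centring and 18.1% with the mean over each gene's probe sets. When each population was tested alone, 11 genes (0.091%) were higher in both and 27 (0.223%) lower in both at an unadjusted p under 0.05, and 15 (0.124%) had opposite signs. In neither population alone did a gene pass limma's adjusted threshold, where 1002 (8.29%) in GFPhigh and 530 (4.39%) in GFP- cells had an unadjusted p under 0.05.

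**Figure D2:**
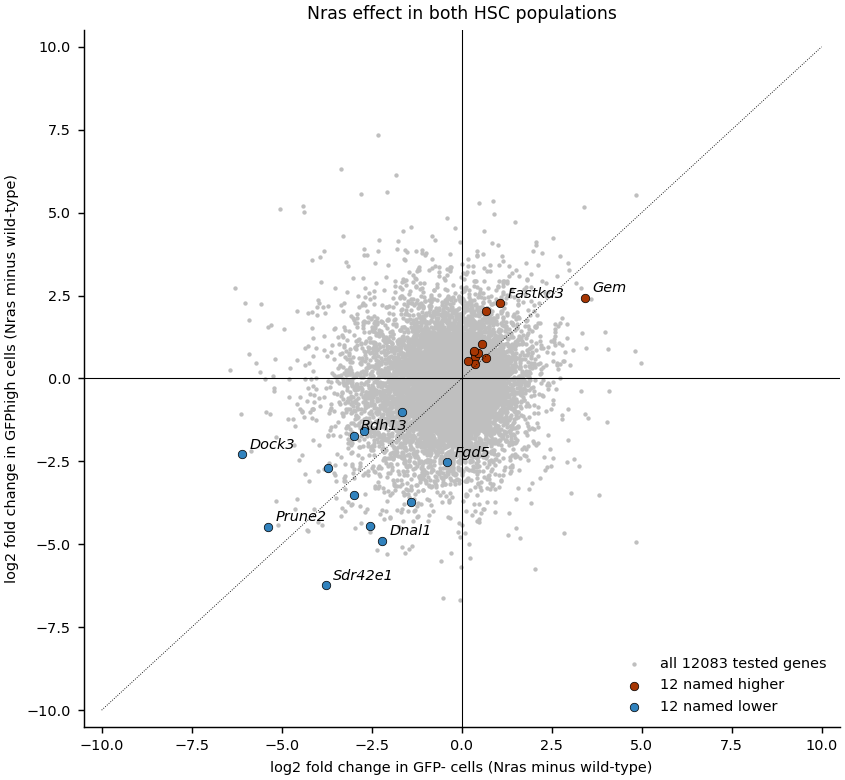
Nras minus wild-type log2 fold change of each of 12083 tested genes in GFP- cells (horizontal) and GFPhigh cells (vertical); red and blue points are the 12 named genes higher and the 12 lower in both populations, and the dotted line marks equal values. Gem lies at 3.44 and 2.44, the named lower genes reach -6.09 and -6.23, and most genes form a round cloud.

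The direction of the shared differences went with signal. The tested genes were split by mean signal into 4 bins of equal size, bin 1 the lowest. In bin 4, 193 genes (6.39%) were higher in both populations at an unadjusted p under 0.05 and 88 (2.91%) lower. In bin 3 the shares were 0.960% and 4.90%, and in bin 2 0.894% and 6.98%. In bin 1 they were 2.05% and 4.34%. Of the 12 genes named below as higher, 11 lay in bin 4, and of the 12 named as lower, 10 lay in bins 1 and 2. The part of this pattern in the differences of single genes was not tested. All arrays had the same trimmed mean, while medians were lowest in Nras GFP- replicates 1 and 2 and Nras GFPhigh replicate 1. Whether this scale difference has a part in the pattern was not tested either.

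**Figure D3:**
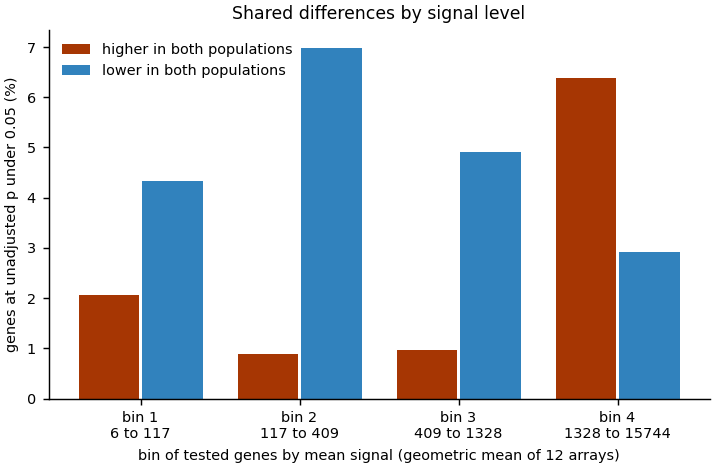
Share of tested genes (%) with an unadjusted p under 0.05 and the same direction in both populations, by bin of mean signal (geometric mean of 12 arrays, in MAS5 signal units; 3020 or 3021 genes a bin). Higher genes make up 6.39% of bin 4, and lower genes reach 6.98% in bin 2.

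Among 22 tested ERK output and feedback genes, the feedback phosphatase genes Dusp1 and Dusp6 had positive differences in both populations, beside Gem, and the cyclin gene Ccnd1 had one mainly in GFP- cells. In the list 7 genes were higher and 5 lower in both populations, where 20.5% and 33.8% of all tested genes were. The 5 lower were Ier3, Hbegf and the phosphatase genes Dusp2, Dusp4 and Dusp5, the last 3 at averages of -0.35, -1.09 and -0.67. Dusp7 and Dusp10 were among 10 genes with opposite signs. At an unadjusted p under 0.05 there were 5 higher (Gem, Dusp1, Dusp6, Ccnd1 and Etv4) and 1 lower (Ier3), against 2.57% and 4.78% of all tested genes. The list was chosen with earlier results of these data known, so the count of Gem in it is a description. Only Gem passed the adjusted threshold. With the uneven arrays left out, 8 were higher and 8 lower in both, with 3 and 0 at an unadjusted p under 0.05. The list's median was -0.14, beside -0.15 over all tested genes.

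Promoter sequence was set beside the ERK output genes because immediate early genes are known for short elements near the start site that bind CREB, SRF, AP-1 and ETS factors. The bases before the start of Dusp1 and of Dusp6 are shown to compare these feedback genes, from RefSeq on GRCm38.p6, 5′ to 3′ on the gene's strand, with a match in capitals. The window of Dusp1 is chr17:26508473-26508722 on the minus strand, and its capitals mark a full cAMP response element (CRE), at positions -143 to -136 from the start. The window of Dusp6 is chr10:99262981-99263230 on the plus strand, and none of the letters searched is in it.
Dusp1: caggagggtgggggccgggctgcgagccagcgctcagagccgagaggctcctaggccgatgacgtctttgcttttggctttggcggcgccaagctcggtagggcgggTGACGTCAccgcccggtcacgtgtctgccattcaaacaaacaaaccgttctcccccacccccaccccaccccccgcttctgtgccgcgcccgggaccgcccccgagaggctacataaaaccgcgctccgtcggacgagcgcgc
Dusp6: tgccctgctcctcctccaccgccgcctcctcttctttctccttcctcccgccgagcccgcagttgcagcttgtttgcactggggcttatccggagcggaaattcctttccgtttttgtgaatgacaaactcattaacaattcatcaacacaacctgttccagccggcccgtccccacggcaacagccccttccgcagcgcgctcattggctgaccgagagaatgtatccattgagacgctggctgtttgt
The letters searched on both strands were the CRE TGACGTCA, the AP-1 site TGANTCA, the ETS site CCGGAAG, the STAT site TTCNNNGAA and the CArG box of SRF by name. Over 32851 windows of 250 bases, 1.55% held the CRE, 6.75% the AP-1 site, 6.91% the ETS site, 7.02% the STAT site and 1.47% the CArG box. A match is a description of letters and not of binding. Gem and Socs2 have no entry in the table.

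Dusp1, a phosphatase that inactivates MAP kinases in the nucleus, read 2279.8, 1343 and 2061 in wild-type and 4176, 4927 and 3446 in Nras GFP- samples. In GFPhigh cells the signals were 3407, 2214 and 2848 in wild-type and 10512, 3245 and 3522 in Nras samples. The GFP- groups did not overlap, whereas in GFPhigh cells 1 Nras sample was below the highest wild-type sample and Nras replicate 1, an uneven array, stood far above the rest. Averaged over both, the log2 fold change was 0.996 ± 0.30 (SE, 6 against 6; unadjusted p 0.00527, adjusted p 0.579 by limma), and 0.67 without the uneven arrays.

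Dusp6 encodes a cytoplasmic phosphatase that is specific for ERK. It read 1100.1, 1265 and 1247 in wild-type GFPhigh and 1985, 2074 and 3086 in Nras GFPhigh samples, groups that did not overlap. In GFP- cells the signals were 2274, 1296 and 2222 in wild-type and 3643, 2071 and 2686 in Nras samples, with overlap. Its averaged value was 0.75 ± 0.28 (SE), 0.96 in GFPhigh and 0.54 in GFP- cells, at an adjusted p of 0.597 by limma.

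Ccnd1, the D-type cyclin that couples growth signals to G1 entry, had the pattern reversed. Signals in GFP- cells were 2038, 1478 and 1358 in wild-type and 4441, 3311 and 3085 in Nras samples, without overlap. In GFPhigh cells they were 3173, 1633 and 2229.7 in wild-type and 2643, 2499 and 2554 in Nras samples, with the Nras samples inside the wild-type range. The log2 fold change was 1.16 in GFP- and 0.18 in GFPhigh cells, with an average of 0.67 ± 0.24 (SE) and an adjusted p of 0.594 by limma. Without the uneven arrays the GFPhigh value was -0.059, so the shared sign was lost, and its 3 probe sets ranged from -0.19 to 0.76 on average. The Sprouty gene Spry2, another ERK feedback inhibitor, did not share a direction (-0.87 in GFPhigh and 0.07 in GFP- cells), and its 2 probe sets had opposite signs.

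Among 26 tested immediate early genes, 14 were higher and 3 lower in Nras cells of both populations, where 20.5% and 33.8% of all tested genes were. The median of the list was 0.36, with 0.53 in GFPhigh and 0.22 in GFP- cells. Egr1 and Klf6 were the 2 with an unadjusted p under 0.05 and the same direction in both populations, both higher, beside 2.57% of all tested genes. None of the list passed the adjusted threshold. On the other 8 arrays 9 were higher and 6 lower in both populations, and the median was 0.12.

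Egr1, the zinc finger factor at the head of the immediate early response, read 8397, 7754 and 9265 in wild-type and 18004, 11024 and 10140.1 in Nras GFPhigh samples. In GFP- cells it read 5209, 5286 and 8054 in wild-type and 10726, 6303 and 6853 in Nras samples. The GFPhigh groups did not overlap and the GFP- groups did. Its averaged log2 fold change of 0.47 ± 0.18 (SE) was 0.16 without the uneven arrays, 1 of which, Nras GFPhigh replicate 1, held the highest value.

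Klf6, a Krüppel-like factor, had an averaged log2 fold change of 0.42 ± 0.17 (SE), with no overlap in GFPhigh cells and overlap in GFP- cells, and its 5 probe sets ranged from -0.39 to 1.05. Jun and Fos, the partners of AP-1, were at 0.69 ± 0.38 and 0.89 ± 0.58 (SE), each with the same sign in both populations and adjusted p-values of 0.676 and 0.721 by limma. Their spread was wide, since Fos read 3047, 276 and 3371 in the 3 wild-type GFP- samples alone.

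Genes of the RAS pathway were measured beside its outputs, beginning with Nras. It read 3209.8, 3159 and 2881 in wild-type and 3567, 3846 and 3530.4 in Nras GFP- samples, and 2415, 1250.2 and 3374 in wild-type and 3004, 2409.7 and 4275 in Nras GFPhigh samples. The array does not tell the G12D transcript from the normal one, so this signal checks no label. Its averaged log2 fold change was 0.39 ± 0.26 (SE, adjusted p 0.729 by limma). Of its 3 probe sets 2 were higher and 1 lower, from -0.15 to 0.39. By the brightest probe set of each gene, Nras was the 1 gene of 14 tested RAS family GTPases higher in both populations. In both populations 6 were lower (Rras2, Ralb, Rras, Rheb, Mras and Rap1b), beside 20.5% higher and 33.8% lower over all genes. On the 8 other arrays these counts were 5 and 4, and the list's median went from -0.29 to 0.052.

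Rras2 and Ralb, a RAS relative and a GTPase downstream of RAS, had averaged log2 fold changes of -2.80 ± 1.15 and -1.85 ± 0.78 (SE), both at an adjusted p of 0.609 by limma. With the uneven arrays left out, they were -4.35 and -0.15. The groups overlapped in at least 1 population for each. On GFP- arrays Rras2 read 1087, 11.3 and 88.7 in the Nras samples, with the uneven array highest.

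Of 26 tested RAS regulators and effectors, 3 were higher and 10 lower in both populations, beside 20.5% and 33.8% of all tested genes. Sos2, an exchange factor that loads RAS with GTP, was the 1 member without overlap in either population, a pattern seen in 0.596% of tested genes for the lower direction. It read 929, 765 and 1162 in wild-type and 198, 639 and 761 in Nras GFP- samples. In GFPhigh cells it read 752, 2133 and 730.3 in wild-type and 166, 405 and 430 in Nras samples. The gap in GFP- cells was narrow, the highest Nras sample lying just below the lowest wild-type sample. Its averaged log2 fold change was -1.41 ± 0.52 (SE, adjusted p 0.597 by limma), and -0.61 without the uneven arrays. Rassf1, a RAS-association domain tumour suppressor, and Rasal3, a RAS GTPase-activating protein, were at -1.29 ± 0.52 and -2.10 ± 0.92 (SE), and at -0.30 and -0.18 without the uneven arrays.

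In the parallel STAT5 branch, 2 of 18 tested genes were higher and 7 lower in both populations, beside 20.5% and 33.8% of all tested genes. Socs2, a suppressor of cytokine signalling that STAT5 switches on, read 306, 1322 and 973 in wild-type and 7, 240.4 and 80.5 in Nras GFP- samples, without overlap. The GFPhigh groups read 1984, 804 and 794 in wild-type and 1019, 172 and 25 in Nras samples, and 1 Nras sample lay inside the wild-type range. Its averaged log2 fold change was -3.28 ± 0.99 (SE; unadjusted p 0.00576, adjusted p 0.579 by limma), and -4.02 without the uneven arrays. Of its 6 probe sets 5 were lower and 1 higher.

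Pim2, a survival kinase gene, was at -1.82 ± 0.71 (SE), with -3.12 in GFPhigh and -0.52 in GFP- cells. Cish, another STAT5 feedback gene, was at -1.33 ± 0.79 (SE) and at -0.12 without the uneven arrays. Stat5a was at -0.42 ± 0.22 (SE) with the same sign in both populations, and Stat5b at -0.23 ± 0.42 (SE) with opposite signs. Ccnd2, a D-type cyclin that STAT5 can induce, went the other way, at 0.37 ± 0.14 (SE). None of these passed the adjusted threshold of limma, the lowest adjusted p being that of Socs2. The list's median was -0.17, close to that of all genes.

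Cytokine and growth factor receptors were the list with the lowest median, -0.50, with -0.25 in GFPhigh and -0.74 in GFP- cells. Of 26 tested, 13 were lower and 3 higher in both populations (Cxcr4, Csf3r and Ifnar2), where 33.8% and 20.5% of all genes were. Among the 13 were Csf2ra, Csf2rb, Il6st, Flt3, Ifngr1, Tek and Epor. Leaving out the uneven arrays, 10 were lower and 5 higher, and the median was -0.16. Csf2ra, the alpha chain of the GM-CSF receptor, was at -1.79 ± 0.83 (SE, adjusted p 0.645 by limma). Cxcr4, which holds HSCs in the marrow through its ligand CXCL12, was at 0.49 ± 0.20 (SE). It was the single member with an unadjusted p under 0.05 and the same direction in both populations, where 2.57% of all tested genes were higher. Kit, the receptor for stem cell factor, was at -0.12 ± 0.21 (SE), with 0.04 in GFPhigh and -0.29 in GFP- cells.

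In the PI3K, AKT and mTOR list, 5 of 25 tested genes were higher and 7 lower in both populations, beside 20.5% and 33.8% of all tested genes. Pdk1, here the pyruvate dehydrogenase kinase by its symbol, was at -1.08 ± 0.49 (SE), and at -0.09 without the uneven arrays. Foxo1, which AKT holds out of the nucleus, did not agree between populations (2.63 in GFP- and -0.31 in GFPhigh cells). Pik3ca, the catalytic p110 alpha subunit, was at 0.62 ± 0.29 (SE), but 4 of its 6 probe sets were lower. No gene of the list passed the adjusted threshold.

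Beyond Gem, the 12 genes named as higher and the 12 as lower were those of smallest p with no overlap in either population and a mean signal of at least 200 units in the higher genotype. Their separation is therefore set by the choice and is given as a description. In all, 42 tested genes (0.348%) were higher and 72 (0.596%) lower without overlap in either population, and 65 (0.538%) separated with opposite signs. No named gene other than Gem passed the adjusted threshold, with adjusted p-values of 0.401 for Dock3 and 0.579 for the rest by limma.

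Srsf1, Rbm39 and Pnn, each known for a part in pre-mRNA splicing, were among the named higher genes. Srsf1, an SR protein that selects splice sites, read 6706, 8487 and 6973 in wild-type and 10048, 9892 and 8689 in Nras GFP- samples. Its GFPhigh signals were 7848, 7859.7 and 6555 in wild-type and 11003, 14651 and 9848 in Nras samples, 3 against 3 without overlap. Its average was 0.52 ± 0.11 (SE). Rbm39, a splicing coactivator, was at 0.61 ± 0.14 and Pnn, a nuclear speckle protein, at 0.58 ± 0.12 (SE).

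The probe sets of these genes did not agree. Of 7 for Srsf1, 5 were lower in Nras cells, and they ranged from -0.60 to 0.52. Those of Rbm39 were 7 higher and 5 lower, and those of Pnn 2 higher and 1 lower, from -1.79 to 0.58. With the mean over probe sets the log2 fold change became -0.36 for Pnn and -0.076 for Srsf1. Each value above is that of the brightest probe set of the gene.

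Pfn1, the actin-binding protein profilin, read 6097, 6305 and 5793 in wild-type and 10725, 6861 and 7466 in Nras GFP- samples, and 5689, 5926 and 4838 in wild-type and 8796, 11022 and 8518 in Nras GFPhigh samples. It had 1 probe set and an averaged log2 fold change of 0.61 ± 0.13 (SE), 0.47 without the uneven arrays. Rgs2, which shuts off Gq-coupled receptor signalling, read 3163, 2889 and 3889.7 in wild-type and 5500.1, 4571 and 4715 in Nras GFP- samples. Its GFPhigh signals were 1939, 1374 and 3625 in wild-type and 4960.3, 3957 and 4178 in Nras samples. All 4 of its probe sets were higher, from 0.095 to 0.92, and the brightest was at 0.80 ± 0.23 (SE).

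The windows before Rgs2 and Pnn are shown because both genes were among the named higher ones and only Pnn held a match. The window of Pnn is chr12:59066669-59066918 on the plus strand, and its capitals mark an ETS site read on the opposite strand, at positions -62 to -56 from the start. The window of Rgs2 is chr1:144004150-144004399 on the minus strand and holds none of the letters searched.
Pnn: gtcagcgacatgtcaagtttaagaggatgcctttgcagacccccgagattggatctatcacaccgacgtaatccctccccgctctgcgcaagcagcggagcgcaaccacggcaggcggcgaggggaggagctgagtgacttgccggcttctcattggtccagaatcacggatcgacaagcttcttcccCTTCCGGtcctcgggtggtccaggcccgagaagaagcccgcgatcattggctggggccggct
Rgs2: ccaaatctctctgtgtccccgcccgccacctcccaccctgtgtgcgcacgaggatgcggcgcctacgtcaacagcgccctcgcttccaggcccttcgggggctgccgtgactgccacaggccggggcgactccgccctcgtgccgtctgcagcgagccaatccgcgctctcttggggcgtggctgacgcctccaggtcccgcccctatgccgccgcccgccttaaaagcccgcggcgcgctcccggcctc
Of the named genes, 9 higher and 10 lower ones have a window in the table. Among the higher ones 1 held the ETS site (Pnn) and 1 the AP-1 site (Mndal), and among the lower ones 1 held the CArG box (Prune2). None of the 19 held the CRE or the STAT site.

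The other named higher genes covered several functions. Serinc1, a membrane protein of the serine incorporator family, was at 0.66 ± 0.19 (SE), with 2 of 4 probe sets lower. Atp11b, a phospholipid flippase, was at 0.42 ± 0.12, and Mndal, an interferon-inducible nuclear protein with close relatives in the genome, at 0.58 ± 0.15 (SE). Hsp90aa1, the stress-inducible HSP90 chaperone, was at 0.35 ± 0.10 (SE), with 4 of 5 probe sets higher. Fastkd3, a mitochondrial RNA-binding protein, and the histone gene H2aw had the widest differences after Gem, at 1.67 ± 0.50 and 1.36 ± 0.41 (SE). On the 8 other arrays they were 0.77 and 0.76, and the other probe set of Fastkd3 was at -0.24. Over the 11 named higher genes apart from Gem, the range was 0.35 to 1.67 with all arrays and 0.23 to 0.77 without the uneven arrays.

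**Figure D4:**
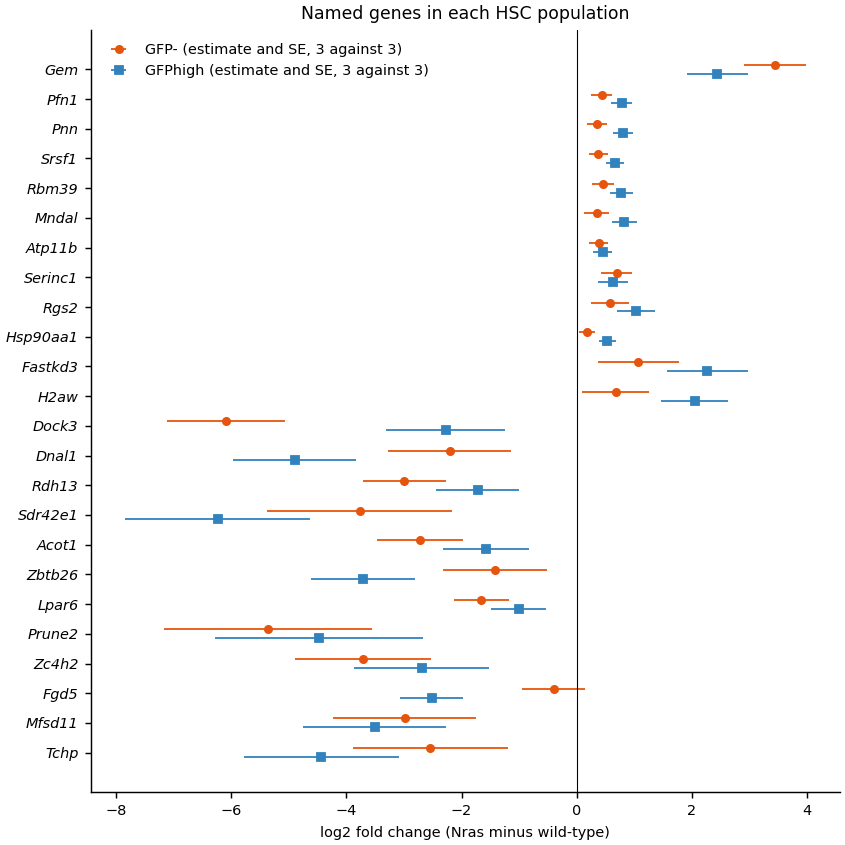
Nras minus wild-type log2 fold change of the 24 named genes in GFP- cells (circles) and GFPhigh cells (squares), with the standard error from limma, 3 against 3 samples each. The 11 higher genes after Gem lie between 0.18 and 2.27, and the 12 lower genes between -6.23 and -0.40 with wider errors.

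Most named lower genes had signals near the bottom of the scale in Nras cells, so the size of their log2 fold changes depends on how low values are treated. Dock3, an exchange factor for Rac, read 181, 716 and 243 in wild-type and 3.2, 1.8 and 17.3 in Nras GFP- samples. The GFPhigh groups read 319, 149 and 209.8 in wild-type and 26, 104 and 32.3 in Nras samples. Its averaged log2 fold change was -4.18 ± 0.72 (SE), -1.54 after 100 units were added to each signal, and its other probe set was at 1.16. Dock3 passed the threshold without Nras GFP- replicate 3, with an adjusted p of 0.0452 by limma.

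Rdh13, a retinol dehydrogenase, read 1534, 1039 and 912 in wild-type and 76.3, 106 and 355 in Nras GFP- samples. Its GFPhigh signals were 482, 764 and 789 in wild-type and 291, 181 and 154 in Nras samples. The averaged log2 fold change was -2.36 ± 0.51 (SE), from 1 probe set, and -1.81 with 100 units added. Acot1, an acyl-CoA thioesterase with a near-identical neighbour in the genome, was at -2.15 ± 0.53 (SE), so the share of each copy in its signal is uncertain. The values without the uneven arrays were -2.28 for Rdh13 and -2.20 for Acot1.

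Lpar6, a receptor for lysophosphatidic acid, read 1682, 1973 and 2891 in wild-type and 589, 729.5 and 713 in Nras GFP- samples, and 2833, 3257 and 2703 in wild-type and 1989, 708 and 2159 in Nras GFPhigh samples. Its average was -1.33 ± 0.34 (SE). Fgd5, a Cdc42 exchange factor whose expression marks HSCs, read 1973, 1741 and 2057 in wild-type GFPhigh and 219, 265 and 653 in Nras GFPhigh samples. The gap was smaller in GFP- cells, at 1003, 988 and 1117 in wild-type and 879.8, 706 and 778 in Nras samples. Its averaged value was -1.46 ± 0.39 (SE), with -2.52 in GFPhigh and -0.40 in GFP- cells.

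The remaining named lower genes were Sdr42e1 (-5.00), Prune2 (-4.92), Dnal1 (-3.55), Tchp (-3.49), Mfsd11 (-3.25), Zc4h2 (-3.20) and Zbtb26 (-2.56), all as averaged log2 fold changes. Sdr42e1 belongs to the short-chain dehydrogenases, Dnal1 is a light chain of axonemal dynein, and Zbtb26 and Zc4h2 are zinc finger proteins. With 100 units added, the 12 named lower genes lay between -2.70 (Prune2) and -1.24 (Lpar6). With the uneven arrays left out, they lay between -4.41 (Dock3) and -0.96 (Lpar6). The probe sets of Prune2 disagreed, with 3 lower and 1 higher.

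Cell cycle genes were compared because the series title names proliferation. Of 31 tested G1/S and DNA replication genes, 8 were higher and 5 lower in both populations, and Pcna, Gins2 and Rfc4 were higher in both at an unadjusted p under 0.05, beside 20.5%, 33.8% and 2.57% of all tested genes. Pcna, the sliding clamp of DNA polymerase, read 6397, 6520.1 and 6778 in wild-type and 7694, 8493 and 8054 in Nras GFP- samples. Its GFPhigh signals were 6975, 7406 and 5632 in wild-type and 7948, 8708 and 8184 in Nras samples. Neither population overlapped, as in 0.348% of all genes in this direction. The averaged log2 fold change was small, 0.31 ± 0.10 (SE, adjusted p 0.579 by limma), at 0.32 in GFPhigh and 0.30 in GFP- cells, and 0.36 without the uneven arrays.

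Gins2, a subunit of the replicative helicase, was at 1.33 ± 0.49 (SE) and 1.49 without the uneven arrays. Lig1, the replicative DNA ligase, had opposite signs, with -3.93 in GFPhigh and 0.61 in GFP- cells. Of 28 tested G2/M and mitosis genes, 11 were higher and 5 lower in both populations, beside 20.5% and 33.8% of all tested genes. The list's median was 0.34. At an unadjusted p under 0.05 in limma 1 was higher (Kif20a) and 1 lower (Ndc80), beside 2.57% and 4.78% of all tested genes. On the 8 other arrays 11 were higher and 3 lower, beside 22.9% and 28.1% of all tested genes, and the median was 0.18. Kif20a, a mitotic kinesin, was at 1.80 ± 0.67, and Ndc80, a kinetochore protein, at -2.30 ± 0.78 (SE). Without the uneven arrays Kif20a was at 0.87, with -0.18 in GFPhigh cells, and Ndc80 at -0.57. Mki67, which encodes the proliferation marker Ki-67, was at 1.58 ± 0.84 (SE) with all arrays and at -0.10 without the uneven arrays, 1 of which, wild-type GFPhigh replicate 2, read 51.6. The cyclin-dependent kinase inhibitor genes Cdkn1a and Cdkn1c were at 0.59 ± 0.997 and 0.10 ± 0.49 (SE), with opposite signs in the populations.

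HSC identity genes went both ways. Of 33 tested, 10 were higher and 10 lower in both populations, 3 each at an unadjusted p under 0.05, and the median was -0.027. Over all tested genes the shares were 20.5% and 33.8%, and 2.57% and 4.78% at that p. Higher were Angpt1, Hlf and Msi2, and lower were Fgd5, Ifitm1 and Fli1. Angpt1, the ligand of the Tie2 receptor on HSCs, was at 0.31 ± 0.11 (SE). Procr, the endothelial protein C receptor, was at -0.23 ± 0.25, and Gfi1, a repressor that restrains HSC cycling, at -0.76 ± 0.57 (SE), neither near the threshold.

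Ifitm1, an interferon-induced membrane protein, read 6515, 8579 and 8122 in wild-type and 4396, 4970.1 and 4694 in Nras GFP- samples. The GFPhigh groups read 10256, 11207 and 8889 in wild-type and 12732, 9023 and 8331 in Nras samples. The groups separated in GFP- cells and overlapped in GFPhigh cells, for an averaged log2 fold change of -0.37 ± 0.13 (SE). After quantile normalization it passed the adjusted threshold at -0.70 (adjusted p 0.0232 by limma). Of 31 quiescence regulators 9 were higher and 5 lower in both populations, beside 20.5% and 33.8% of all tested genes. Egr1 and Cxcr4 were the 2 higher in both at an unadjusted p under 0.05, beside 2.57% of all tested genes.

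Cytoplasmic ribosomal protein genes were higher in 11 of 20 tested and lower in none in both populations, beside 20.5% and 33.8% of all tested genes. Of the 11, 7 had an unadjusted p under 0.05, where 2.57% of all genes were higher in both at that p. Rps4x, Rpl4 and Rps2 were at 0.42 ± 0.13, 0.34 ± 0.11 and 0.42 ± 0.14 (SE). Without the uneven arrays they were at 0.20, 0.15 and 0.17, and 11 genes of the list were higher and 1 lower in both populations. The median of the list was 0.24, with 0.46 in GFPhigh and 0.037 in GFP- cells, and it was -0.08 after quantile normalization and 0.090 without the uneven arrays. Of 26 tested heat shock and unfolded protein response genes, 9 were higher and 7 lower in both populations. Over all tested genes the shares were 20.5% and 33.8%, and the median of these 26 was 0.033. At an unadjusted p under 0.05, 5 were higher (Hsp90aa1, Hspa8, Hspa5, Dnajb1 and Hspd1), beside 2.57% of all tested genes. Without the uneven arrays Hspa8 and Hspa5 went from 0.33 and 0.47 to 0.17 and 0.14. These are genes of high signal, and the part of signal level in their direction was not tested.

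Genes of ribosome biogenesis and MYC targets differed among themselves. Npm1 and Ncl, which encode abundant nucleolar proteins, were at 0.29 ± 0.12 and 0.31 ± 0.13, and Srm, the spermidine synthase gene, at -1.21 ± 0.52 (SE). Myc was at 0.13 ± 0.21 (SE). Of 34 genes of ribosome biogenesis and MYC targets, 9 were higher and 5 lower in both populations, beside 20.5% and 33.8% of all tested genes. Of 29 oxidative phosphorylation genes, 5 were higher and 5 lower, beside the same shares. Uqcrc2 and Atp5a1 were at 0.65 ± 0.22 and 0.35 ± 0.13 (SE), and at 0.29 and 0.08 without the uneven arrays. Polycomb and DNA methylation genes were lower in 14 of 28 and higher in 6 in both populations, beside 33.8% and 20.5% of all tested genes, with a median of -0.18 near that of all genes (-0.15), and were lower in 8 without the uneven arrays.

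Among 22 p53 targets, 7 were higher and 6 lower in both populations, beside 20.5% and 33.8% of all tested genes. Perp, a desmosomal membrane protein gene, was the single member at an unadjusted p under 0.05 with the same direction in both. It was lower, as were 4.78% of all tested genes at that p. It read 189, 89.2 and 77.8 in wild-type and 1.7, 6.2 and 9.5 in Nras GFP- samples, but in GFPhigh cells Nras replicate 3 read 864 against 7.0 and 23.0 in the other Nras samples. The averaged value of -4.10 ± 1.05 (SE) was -1.36 without the uneven arrays, where the shared direction was lost (1.11 in GFPhigh and -3.83 in GFP- cells). Integrins and adhesion genes were higher in 8 of 27 and lower in 9 in both populations, beside 20.5% and 33.8% of all tested genes. Itgb2 and Itgb7, integrin beta chains of leukocytes, were at 2.00 ± 0.81 and 1.35 ± 0.48, and Cd47, the inhibitor of phagocytosis, at 0.33 ± 0.11 (SE). The values without the uneven arrays were 0.80, 1.17 and 0.16. Tgfb1, a cytokine that keeps HSCs quiescent, was at 1.88 ± 0.66 (SE), though its other probe set was at -0.81.

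**Figure D5:**
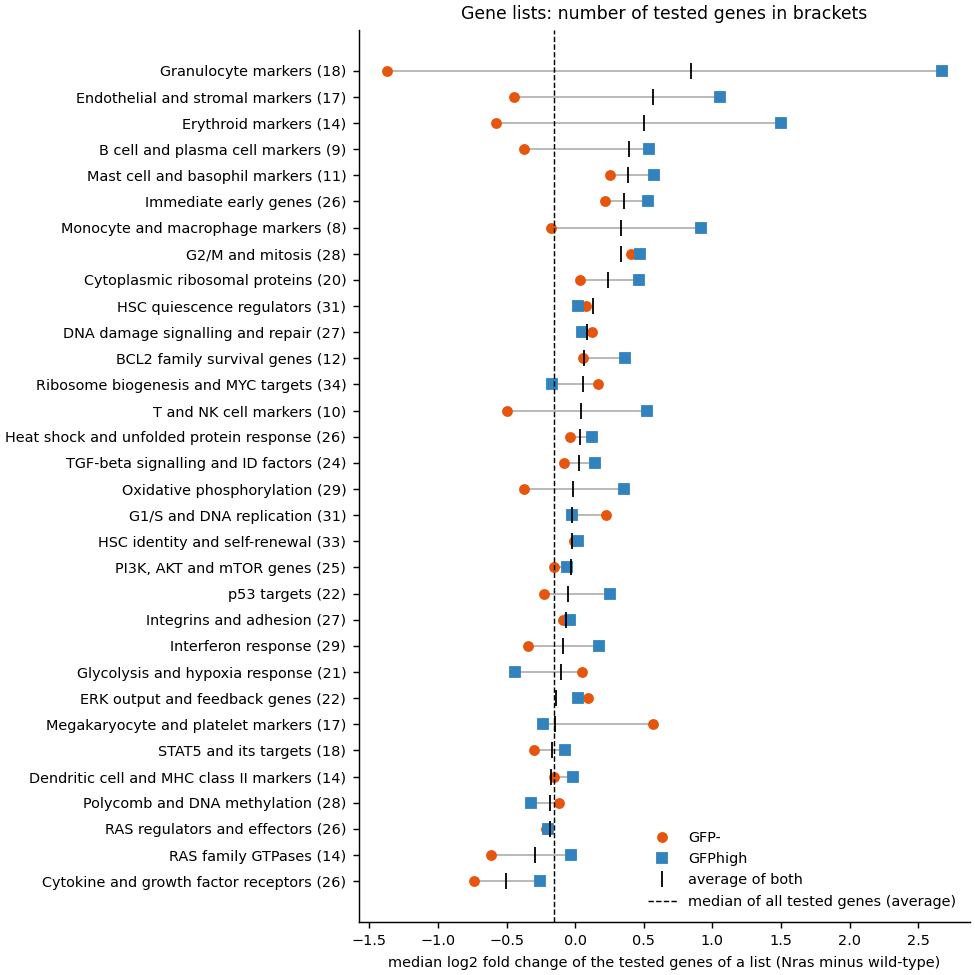
Median Nras minus wild-type log2 fold change of the tested genes of each list in GFP- cells (circles), GFPhigh cells (squares) and averaged (bars), with the number of tested genes in brackets; the dashed line is the median of all tested genes, -0.15. Immediate early, G2/M and mast cell lists lie above the line in both populations, cytokine receptors and RAS family GTPases lie lowest on average, and granulocyte markers point in opposite directions.

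Markers of other blood and stromal cells were measured beside these lists. Mast cell and basophil markers were higher in 7 of 11 tested and lower in 1 in both populations, beside 20.5% and 33.8% of all tested genes. Without the uneven arrays 5 of these markers were higher and 3 lower, beside 22.9% and 28.1% of all tested genes. Their summed signal over 16 genes was 11644 to 12370 in wild-type GFP-, 13382 to 14111 in Nras GFP-, 11970 to 13752 in wild-type GFPhigh and 12733 to 16637 in Nras GFPhigh samples. Fcer1a, the alpha chain of the IgE receptor, read 1.3, 1.6 and 0.9 in wild-type and 2.9, 185 and 82.6 in Nras GFP- samples. In GFPhigh cells it read 0.9, 0.6 and 0.8 in wild-type and 258, 138 and 1.2 in Nras samples. The groups did not overlap, but Nras GFP- replicate 1 and Nras GFPhigh replicate 3 lay just above the wild-type values, and the log2 fold change of 5.19 ± 1.41 (SE) was 0.91 with 100 units added. Without the uneven arrays its GFPhigh difference was 0.50. Hdc and Mcpt8, a histamine-forming enzyme and a basophil protease, were at 2.82 ± 1.24 and 2.08 ± 0.94 (SE), with overlap in GFPhigh cells. Their wild-type GFP- signals were 4 to 12.4, and with 100 units added the values were 0.88 and 0.53. Without the uneven arrays their GFPhigh differences turned to -0.32 and -1.19.

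Granulocyte markers did not share a direction. Their summed signal over 21 genes was 10774 to 73265 in Nras GFPhigh samples, 2137 to 15437 in wild-type GFPhigh, 5176 to 9744 in Nras GFP- and 2907 to 15941 in wild-type GFP- samples. The median log2 fold change was 2.67 in GFPhigh and -1.37 in GFP- cells, and the averaged one went from 0.84 to -0.71 without the uneven arrays. Of 18 tested, 5 were higher and 1 lower in both populations, beside 20.5% and 33.8% of all tested genes. Elane, neutrophil elastase, was at 2.28 ± 0.95, and Prtn3, proteinase 3, at -1.48 ± 0.49 (SE), both with the same sign in each population. Elane signals in wild-type samples were 1.3 to 32.2, its value was 0.68 with 100 units added, and without the uneven arrays its GFPhigh difference was -0.017. Endothelial and stromal markers summed to 8573 to 16748 in Nras GFPhigh samples and 4589 to 6760 in wild-type GFPhigh, and their median was 1.05 in GFPhigh and -0.44 in GFP- cells. Other marker sums were also high in Nras GFPhigh samples. B cell and plasma cell markers summed to 4574 to 7708 there against 1362 to 3902 in wild-type GFPhigh, and T and NK cell markers to 7597 to 9046 against 6109 to 6672, both without overlap. Erythroid markers reached 61558 against 29500.4 and monocyte and macrophage markers 31991 against 14544, with overlap. In GFP- cells all 4 of these sums overlapped between genotypes. The sum of the 33 HSC identity genes was high in Nras GFPhigh samples as well. It was 130710 to 164743 there against 116654 to 130248 in wild-type GFPhigh samples, without overlap, and it overlapped in GFP- cells. Megakaryocyte and platelet markers were 20005 to 21720 in Nras GFP- and 11852 to 18582 in wild-type GFP- samples, and 11761 to 15121 against 15783 to 16753 in the GFPhigh groups. Dendritic cell and MHC class II sums overlapped in both populations. Fewer or more cells of a type and a different amount of RNA per cell cannot be told apart in these bulk samples, and the part of these markers in the shared differences was not tested.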

How the data were processed

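RNA of 12 sorted samples was labelled as biotinylated cRNA and hybridised to Affymetrix arrays, 1 per sample. The deposited values are intensity, as linear signals made by MAS5 per the submitters' processing notes, which give no version. With 2% trimmed from either end, every array had a mean of 500, and no further normalization was applied. Signals were taken to log2, with 3 values at 0 set to a floor of 0.1. Of 45101 probe sets, 34945 had 1 gene symbol, 932 several and 9160 none, and 64 were controls. For each of 18193 genes the brightest probe set by mean log2 was taken, and 12083 genes above the array median on at least 3 arrays were tested. With arrays, their number limits the precision.

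A limma model with a mean for each of 4 groups and an intensity trend gave all differences, with Benjamini-Hochberg adjustment over all tested genes and two-sided p-values. The steps were tested on simulated data. Named genes were those at an adjusted p under 0.05, filled to 12 each way by smallest p (placeholder symbols left out), the 3 of smallest p of each of 33 lists discussed, and fixed RAS, STAT5 and HSC genes. The members and lists (907 entries, 810 matched) were chosen with earlier results of these data known. Other genes are named only to say which members a count holds. Alternatives covered normalization, filter, pseudocount, array weights, probe sets, design and samples. Same-numbered samples did not deviate together in every pair (correlations -0.044 to 0.049 in GFP- and 0.025 to 0.144 in GFPhigh cells), nor did GFP- and GFPhigh samples of 1 genotype and number (-0.0036 to 0.113), so replicate numbers were not used as pairs. Replicate 3 of every group does share the pattern of sex-linked transcripts. Versions were R 4.3.3, limma 3.58.1, matplotlib 3.10.9 and pandas 2.3.3 under Python 3.11.15.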

Additional observations from a re-analysis of the deposited data

Results flagged for a closer look

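For 2 of the 24 named genes the difference itself was tested between the populations and had an unadjusted interaction p under 0.05 in limma, although both populations gave the same sign. Dock3 was lower by a larger margin in GFP- cells (-6.09) than in GFPhigh cells (-2.28), an interaction of 3.81 ± 1.45 (log2, SE; unadjusted p 0.0210, adjusted p 0.956 over all genes). Fgd5 was lower by a larger margin in GFPhigh cells (-2.52) than in GFP- cells (-0.40), an interaction of -2.12 ± 0.77 (log2, SE; unadjusted p 0.0171, adjusted p 0.956). No gene passed the adjusted threshold for the interaction in limma, where 566 (4.68% of tested genes) had an unadjusted p under 0.05.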

How the results depend on the processing

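The number of genes called was 0 with median centring, without the 4 uneven arrays, without shared probe sets (Gem has no other), with a replicate block, with a term for replicate 3, with the random block named below, with only replicates 1 and 2 and without an intensity trend, and 2 (Gem and Ifitm1) after quantile normalization. It ranged from 0 to 5 when 1 array was left out, with 5 without Nras GFP- replicate 3 (Gem, Dock3, Kank2, Prkca and 3110001I22Rik, the last 3 named after their values were seen) and 2 without Nras GFPhigh replicate 2 (Gem and Trim13). With the replicate block, Gem had an adjusted p of 0.140 by limma, a random block of genotype and replicate number, added after the data were seen, gave 0 calls (Gem 0.0573), and the sharing of mice between populations is unknown. Genes with the same direction numbered 4028 of 7294 with a filter at the 75th percentile, and 6166 to 6742 with 1 array left out. Of 87 named genes, 72 kept their sign in all 28 settings that measured them. Signs turned as follows, as log2 fold changes. With median centring Stat5b was at 0.056, Kit at 0.16 and Procr at 0.056. With quantile normalization Npm1 was at -0.082 and Atp5a1 at -0.036. Without the uneven arrays Mki67 was at -0.10. With the mean over probe sets Pnn was at -0.36, Srsf1 at -0.076, Serinc1 at -0.030, Spry2 at 0.20, Stat5b at 0.010, Foxo1 at -0.12, Pik3ca at -0.45, Cdkn1a at -0.23 and Rps4x at -0.23. Without shared probe sets Srsf1 was at -0.60, Serinc1 at -0.20 and Foxo1 at -0.40. With replicates 1 and 2 alone Cdkn1a was at -0.022 and Cdkn1c at -0.56. With 1 array left out Cdkn1a ranged from -0.20 to 1.12, Cdkn1c from -0.12 to 0.37 and Stat5b from -0.50 to 0.013. The cause was not tested. Precision is set by 3 arrays a group and, for the lower genes, by signals near the bottom of the scale.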

Other observations

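When all probe sets were tested one by one, including those with no or several gene symbols, none passed the adjusted threshold of limma, and Gem had the smallest adjusted p (0.0735). The next was a Dsg2 probe set, which was not the brightest of its gene. Dsg2 encodes a desmosomal cadherin. It read 116 to 332 in wild-type GFP- and 1.1 to 11.3 in Nras GFP- samples, and 105 to 389 in wild-type GFPhigh and 1.9 to 6.5 in Nras GFPhigh samples (log2 fold change -5.31 ± 0.74 SE, adjusted p 0.105). All 6 Nras samples were below all 6 wild-type samples. These probe sets were chosen after their values were seen.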
